A study of Caenorhabditis elegans with 12 samples.

Results

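In late-stage embryos of Caenorhabditis elegans, a nematode, messenger RNA was compared between a strain mutated in 3 histone methyltransferase genes, met-2 set-25 set-32, and a strain carrying the I158A point mutation of hpl-2. The first is called the triple mutant here and the second the point mutant. Of 46904 genes in the deposited table, 12267 had a normalised count of at least 10 in at least 2 of the 4 libraries of these strains, and these are the members described. Among them, 323 reached that level in both triple mutant libraries and in neither point mutant library, and 411 did so the other way round. The study held 12 libraries of 6 genotypes, 2 per genotype, from the strains compared here, from hpl-2, from lin-61 hpl-2, from lin-61 and from the wild type, labelled N2. Each library was made from poly(A)-selected RNA of embryos collected in bulk from plates. The labels name the mutated genes and the amino-acid exchange but give no allele for the other mutations, and they leave unsaid whether separate cultures were used for the libraries of a strain. The p-values thus rest on the spread between the samples as they are, which may be technical.

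Methylation of histone H3 at lysine 9 (H3K9) marks silent chromatin. In C. elegans, MET-2, a SETDB1-type enzyme, and SET-25 deposit it, and SET-32 is a further SET-domain protein assigned to the same mark. HPL-2, an HP1-type heterochromatin protein, reads the mark through a chromodomain and interacts with other proteins, itself included, through a chromoshadow domain. The triple mutant thus carries mutations in genes for writers of the mark, while the point mutant keeps the reader gene with 1 exchanged amino acid. The series title places both in a study of phase transition in heterochromatin, and setting them side by side asks where mutated writers and an altered reader give different transcript levels.

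The 4 libraries were of unequal depth and make-up. The triple mutant had 1708350 reads assigned to genes in replicate 1 and 10243076 in replicate 2, and the point mutant had 2533102 and 2371696. Genes annotated as ncRNA took 12% of the reads of triple mutant replicate 1 and 2.15% of replicate 2, against 11.2% in each point mutant library. Ribosomal RNA genes took 0.899% and 4.57% in the triple mutant, and 0.636% and 0.412% in the point mutant. Mitochondrial genes took 0.0807% and 1.62%, against 0.103% and 0.0977%. Between replicates, the SD of log2 values had a median of 0.567 in the triple mutant and 0.149 in the point mutant, with correlations across genes of 0.810 and 0.971. Most markers of late-embryo tissues were read in all 4 libraries. Of 26 cuticle, 25 body wall muscle and 15 intestine genes, 0 were at 0 in any of them. Per library, 1 of 16 pharynx, 0 or 1 of 33 neuronal and 0 to 2 of 39 cilia genes were at 0. Early embryo genes (0 to 5 of 20 at 0) and oocyte and eggshell genes (at most 1 of 30 at 0) were read too. Being read therefore does not by itself set the stage. Major sperm protein genes, which mark adult sperm, were at 0 for 17 to 27 of 31.

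The mutated genes were read first, as a check of the labels. set-25 (WBGene00012802, III, 13283824 to 13293090 on WBcel235) was at 159 and 99.7 in the triple mutant and 489 and 446 in the point mutant. It fell in the triple mutant, where both libraries lay below both point mutant libraries and below the N2 values of 417 and 406 (log2 fold change -1.88, SE 0.23, limma adjusted p = 0.000921). met-2 (WBGene00019883, III, 8375300 to 8380848) was at 44.3 and 77 in the triple mutant and 111 and 114 in the point mutant, and N2 stood higher than both strains at 266 and 267. Its fall in the triple mutant passed with all libraries (log2 fold change -0.93, SE 0.26, limma adjusted p = 0.0408) and was lost without point mutant replicate 1 (limma adjusted p = 0.183) or replicate 2 (0.195). set-32 (I, 9519244 to 9521275) was low throughout, at 6.93 and 2.89 in the triple mutant and 18.3 and 33.6 in the point mutant (log2 fold change -2.22, SE 0.52, limma adjusted p = 0.0215; without point mutant replicate 1 or 2, 0.0678 and 0.175). hpl-2 (WBGene00001996, III, 10752195 to 10755530) was at 337 and 321 in the triple mutant and 283 and 244 in the point mutant, with N2 at 304 and 242, and did not pass (log2 fold change 0.32, SE 0.25, limma adjusted p = 0.439). Messenger RNA of all 4 genes was thus still read in the strains mutated in them.

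Across the members, limma called 1544 genes at a Benjamini-Hochberg adjusted p under 0.05, or 12.6%. Of these, 956 (7.79%) were higher and 588 (4.79%) lower in the triple mutant, and 3712 members had an unadjusted p under 0.05. For 762 of the 956 higher genes the N2 mean lay nearer to the triple mutant than to the point mutant. For the 588 lower genes, N2 lay nearer to the triple mutant for 255 and nearer to the point mutant for 333. All 12 libraries shared 1 estimate of the spread in this fit, and the triple mutant replicates spread more than those of the other strains. Giving each genotype its own weight, which came to 0.151 for the triple mutant and 1.75 for the point mutant, left 329 (2.68%), of which 247 were higher (2.01%) and 82 lower (0.668%). With only the 4 libraries in the fit, limma called 0, with 1739 at an unadjusted p under 0.05. The total was 350 (2.85%) without point mutant replicate 1 and 415 (3.38%) without replicate 2. It was 5463 (44.5%) without triple mutant replicate 1 and 3137 (25.6%) without replicate 2, the latter with 1611 higher (13.1%) and 1526 lower (12.4%). Of the 1544 calls, 199 higher and 23 lower also passed with each of the 4 libraries left out, with the genotype weights and with the length trend described below removed. Most genes named below were chosen by a rule. Where a called gene lost its call on leaving out a library, the p without that library is given, and where removing the length trend ended a call or moved a printed fold change by over 1.5 times, the p or fold change with it removed is given.

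**Figure D1:**
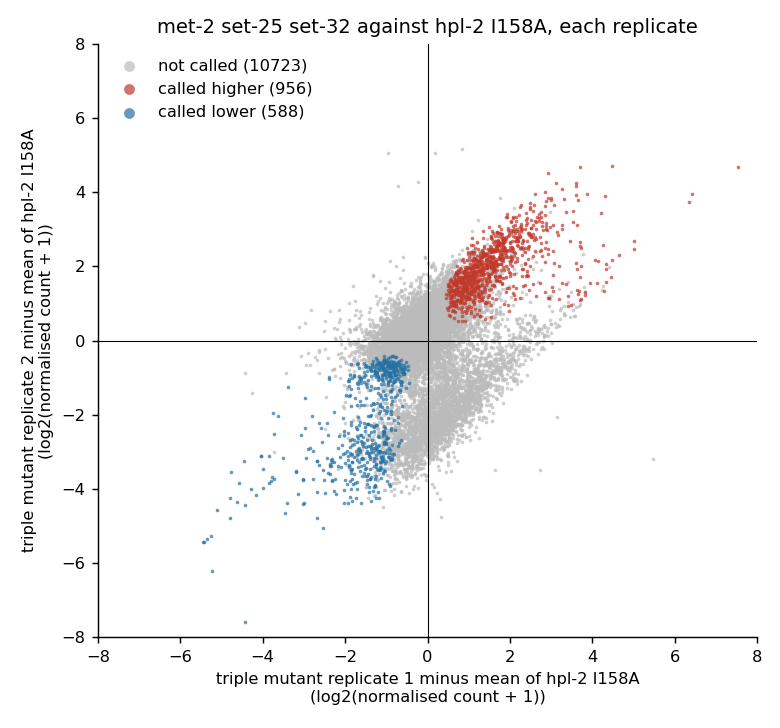
Each point is 1 member gene, with the difference of triple mutant replicate 1 (x axis) and replicate 2 (y axis) from the mean of the point mutant libraries, both on the log2(normalised count + 1) scale. Called genes (956 higher in red, 588 lower in blue) lie where both replicates differ the same way, and a grey cloud of uncalled genes lies far below 0 in replicate 2 alone.

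Both triple mutant libraries lay above both point mutant libraries for 2944 members (24%) and below both for 3151 (25.7%), together 6095 (49.7%). For others the replicates fell on opposite sides: replicate 1 was below and replicate 2 above both point mutant libraries for 1748, with a median exon length of 1757 bases, and the reverse held for 1806, with a median of 646.5 bases. trx-1, a thioredoxin gene with 14.9% of its exons opposite another gene, was at 130.3 and 11.8 in the triple mutant and 27 and 25.5 in the point mutant. ttr-39, a transthyretin-related gene with 10.4% opposite overlap, was at 473 and 45.4 in the triple mutant and 80 and 96.8 in the point mutant, and col-119, a collagen gene, at 72.1 and 5.34 in the triple mutant and 33.7 and 41.8 in the point mutant. In these genes replicate 1 lay above and replicate 2 below the point mutant. The reverse was seen for aat-1, an amino acid transporter gene, at 8.31 and 54.3 in the triple mutant and 25 and 35.7 in the point mutant, and for mob-3 at 8.31 and 56.1 in the triple mutant and 41.4 and 46.9 in the point mutant. fbxc-39, an F-box gene, likewise had 11.1 and 68.1 in the triple mutant and 29.9 and 16.3 in the point mutant. None of these passed with all libraries (limma adjusted p from 0.394 for mob-3 to 0.811 for fbxc-39), and their direction is that of whichever triple mutant library is read.

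Transcript length moved with the calls. Among 10238 protein-coding members, the genes called higher had a median exon length of 2511.5 bases, those called lower 1125.5 and all of them 1505.5. With coding genes cut by exon length into 5 groups of about equal size, 1.95% of the shortest group were called higher and 6.73% lower, and 21.7% and 2.59% of the longest. The median log2 difference from the point mutant ran from -0.13 in the shortest to 0.06 in the longest group in triple mutant replicate 1. In replicate 2 it ran from -0.31 to 0.56. The point mutant libraries themselves had medians over N2 of 0.31 in the shortest group and of -0.13 and -0.16 in the longest. Against N2, triple mutant replicate 1 went from 0.17 to -0.12 and replicate 2 from 0.02 to 0.45. All hpl-2, lin-61 and lin-61 hpl-2 libraries also had a higher median over N2 in the shortest group than in the longest. Without triple mutant replicate 2, the median length was 1928 bases for higher and 1613 for lower calls. Removing a smooth trend on exon length from each library, a step chosen after the data were seen, gave 2390 calls (19.5%), 1059 higher (8.64%) and 1331 lower (10.9%), with 838 of the 956 and 467 of the 588 among them. Whether length itself, RNA integrity or another property of the libraries underlies these medians was not tested.

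**Figure D2:**
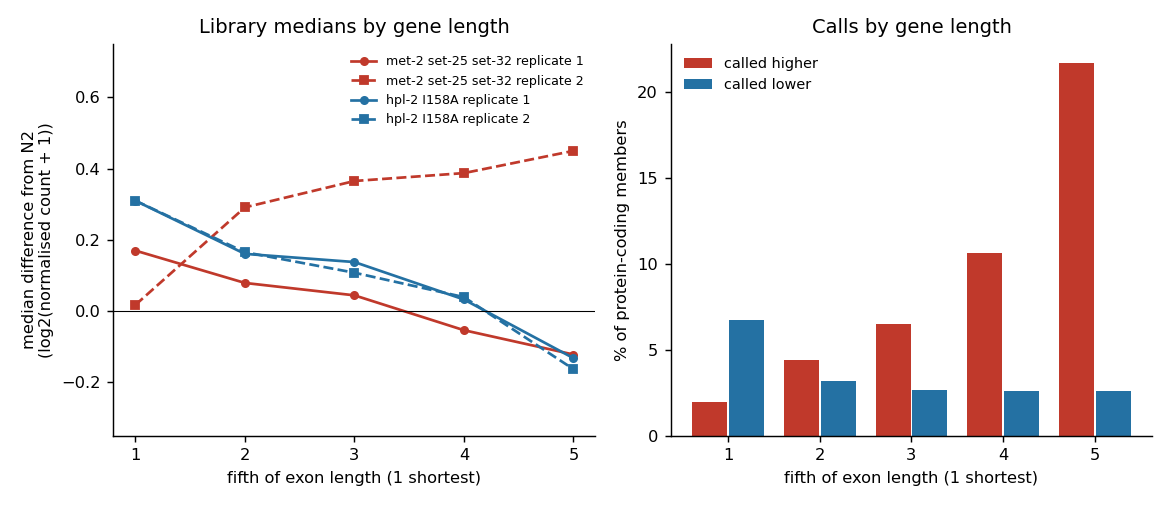
Left, the median difference from the N2 mean (y axis, log2(normalised count + 1)) of each library in 5 groups of about equal size of protein-coding members by exon length (x axis). Right, the percentage of each group called higher or lower in the triple mutant; the share called higher goes from 1.95% in the shortest to 21.7% in the longest group.

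Of 13 genes for H3K9 methylation and HP1 factors, 2 (15.4%) were called higher and 3 (23.1%) lower, against 7.79% and 4.79% of all members. Their median log2 fold change was -0.11, against -0.10 over all members. With the length trend removed 1 was higher and 3 lower. The lower ones were the mutated methyltransferase genes. cec-8 (WBGene00021913, III, 429338 to 431749), which encodes a chromodomain protein, rose to 2.31 times the point mutant level, with 1109 and 1058 in the triple mutant and 467 and 469 in the point mutant (log2 fold change 1.21, SE 0.18, limma adjusted p = 0.00222). Both triple mutant values were above both point mutant values and near the N2 values of 1044 and 815. lin-13, a zinc-finger synMuv B gene, was at 1637 and 2798 in the triple mutant and 1126 and 1124 in the point mutant (log2 fold change 0.93, SE 0.23, limma adjusted p = 0.0297; 0.161 and 0.152 without point mutant replicate 1 or 2, and 0.243 at a log2 fold change of 0.29 with the length trend removed). The HP1 homolog gene hpl-1 did not pass at 26.3 and 36.9 in the triple mutant and 50.1 and 64.2 in the point mutant (log2 fold change -0.84, limma adjusted p = 0.157), and neither did cec-4, whose product anchors H3K9-methylated chromatin at the nuclear periphery, at 802 and 532 in the triple mutant and 383 and 399 in the point mutant (0.74, limma adjusted p = 0.1). Among the remaining members of the list no call was made for lin-61, lin-65, arle-14, cec-3, jmjd-2 or hpl-2.

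Chromatin genes outside the H3K9 pathway included several calls that passed with each of the 4 libraries left out. Of 22 synMuv B and DREAM factors, 3 (13.6%) were higher and 1 (4.55%) lower, against 7.79% and 4.79% of all members. The higher ones were lin-35, let-418 and lin-13, and the lower one was met-2. Both lin-13 and met-2 were also counted among the H3K9 genes above. The list counted 3 higher and 3 lower with the length trend removed, and 8 and 2 without triple mutant replicate 1, a setting that called 44.5% of all members. lin-35 (I, 5807709 to 5815637), the C. elegans retinoblastoma homolog, was at 403 and 607 in the triple mutant and 131 and 147 in the point mutant (log2 fold change 1.83, SE 0.28, limma adjusted p = 0.00306). let-418, a Mi-2-type remodeller gene, was at 2803 and 3648 in the triple mutant and 1526 and 1657 in the point mutant (log2 fold change 1.01, SE 0.17, limma adjusted p = 0.00494; 0.0694 without point mutant replicate 1). In both genes all triple mutant values exceeded all point mutant values. Among 17 other histone methylation factors, 2 were higher and 0 lower, with 3 and 2 once the length trend was removed and 8 and 1 without triple mutant replicate 1. rbr-2 (WBGene00004319, IV, 10920070 to 10926817), an H3K4 demethylase gene, was at 529 and 805 in the triple mutant and 135 and 161 in the point mutant (log2 fold change 2.14, SE 0.23, limma adjusted p = 0.000619). met-1 (I, 4254197 to 4264699), an H3K36 methyltransferase gene, was at 687 and 971 in the triple mutant and 242 and 230.3 in the point mutant (log2 fold change 1.79, SE 0.21, limma adjusted p = 0.000776). The N2 values, 456 and 358 for rbr-2 and 779 and 610.5 for met-1, lay above both point mutant libraries. chd-7, a chromodomain helicase gene and one of the most abundant genes called, was at 4017 and 4811 in the triple mutant and 1682 and 1771 in the point mutant (log2 fold change 1.35, SE 0.17, limma adjusted p = 0.00107; log2 fold change 0.57 with the length trend removed).

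The dosage compensation complex lowers expression of both X chromosomes in hermaphrodites. Of its 11 listed genes 5 (45.5%) were higher and 1 (9.09%) lower, against 7.79% and 4.79% of all members. Their median log2 fold change was 0.98. The list counted 3 higher and 0 lower with genotype weights, and 5 and 1 with the length trend removed. The list is of long transcripts, with a median exon length of 4238 bases. sdc-2 (WBGene00004746, X, 11522707 to 11533450), which brings the complex to X in animals with a pair of X chromosomes, showed the widest gap. It was at 569.5 and 1256 in the triple mutant and 56.8 and 73.4 in the point mutant (log2 fold change 3.69, SE 0.43, limma adjusted p = 0.000814; log2 fold change 2.93 with the length trend removed), with 12.8% of its exons opposite another gene. N2 stood at 649.5 and 317, so the point mutant was the strain that stood apart from the other libraries shown. mix-1 (WBGene00003367, II, 10824246 to 10841424), a condensin SMC subunit gene, was at 1005 and 1321 in the triple mutant and 283 and 356 in the point mutant (log2 fold change 1.86, SE 0.21, limma adjusted p = 0.000753). sdc-3, which acts with sdc-2, was at 370.0 and 580.0 in the triple mutant and 148 and 174 in the point mutant (log2 fold change 1.52, SE 0.24, limma adjusted p = 0.00338; 0.0514 without point mutant replicate 1, and a log2 fold change of 0.90 with the length trend removed). dpy-26, a condensin subunit gene, was at 495 and 799 in the triple mutant and 247 and 299.6 in the point mutant (log2 fold change 1.21, SE 0.24, limma adjusted p = 0.0109; 0.114 and 0.0543 without point mutant replicate 1 or 2). Of the 1783 members on X, 96 (5.38%) were called higher and 99 (5.55%) lower. Their median log2 fold change was -0.18, against -0.10 over all members. Of 15 members at the left end of X, described below, 14 were among the lower calls.

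Small RNA genes were higher in 10 of 42 cases (23.8%) and lower in 1 (2.38%), with a median of 0.20, and 5 of the higher calls also passed with each of the 4 libraries left out, with genotype weights and with the length trend removed. Over all members 7.79% were called higher and 4.79% lower. The list's median exon length was 3065.5 bases, and 21.7% of the longest group of coding genes were called higher. ego-1 (WBGene00001214, I, 7650341 to 7656338) and its neighbour rrf-1 (WBGene00004508, I, 7643431 to 7649777) encode RNA-dependent RNA polymerases that amplify small RNAs. ego-1 was at 95.6 and 226 in the triple mutant and 14.4 and 18.3 in the point mutant (log2 fold change 3.10, SE 0.38, limma adjusted p = 0.00107), and rrf-1 at 218 and 429 in the triple mutant and 79 and 55 in the point mutant (log2 fold change 2.20, SE 0.32, limma adjusted p = 0.00226). rde-1 (V, 9987916 to 9991642), the Argonaute gene of the response to exogenous double-stranded RNA, was at 99.8 and 189 in the triple mutant and 25 and 20.4 in the point mutant (log2 fold change 2.55, SE 0.35, limma adjusted p = 0.00184). dcr-1 (III, 8071967 to 8080281), the Dicer gene, was at 406 and 693 in the triple mutant and 105 and 128 in the point mutant (log2 fold change 2.18, SE 0.28, limma adjusted p = 0.00131). In all 4 genes the libraries of the strains did not overlap, and both N2 libraries lay between them, at 63.9 and 71.9 for ego-1 and 400.3 and 305 for dcr-1. The 1 lower gene was alg-2, a microRNA Argonaute gene, at 855 and 1069 in the triple mutant and 1482 and 1435 in the point mutant (log2 fold change -0.61, SE 0.17, limma adjusted p = 0.0413; 0.222 and 0.182 without point mutant replicate 1 or 2). With the length trend removed the list counted 8 higher and 3 lower.

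Meiosis genes were higher in 4 of 23 cases (17.4%) and lower in 0, as were 4 and 0 of 23 genes for DNA damage and apoptosis, against 7.79% and 4.79% of all members. With the length trend removed the lists counted 3 and 0 and 4 and 1, and with genotype weights 2 and 0 each. syp-1 (WBGene00006375, V, 16404274 to 16407701) and syp-4 (WBGene00019247, I, 6847511 to 6849923) encode central proteins of the synaptonemal complex, which holds paired chromosomes together. syp-1 was at 208 and 254 in the triple mutant and 30.8 and 40.8 in the point mutant (log2 fold change 2.66, SE 0.27, limma adjusted p = 0.000441), with 16.9% of its exons shared with a gene on the same strand. syp-4 was at 184 and 195 in the triple mutant and 35.6 and 58.1 in the point mutant (log2 fold change 2.03, SE 0.27, limma adjusted p = 0.00159). In both, both triple mutant libraries also lay above N2, at 70.1 and 50 for syp-1 and 87.2 and 71.9 for syp-4. him-8, which pairs the X chromosomes, was low, at 23.6 and 44.3 in the triple mutant and 7.71 and 2.04 in the point mutant (log2 fold change 2.70, SE 0.65, limma adjusted p = 0.0253; 0.193 without point mutant replicate 2). Among repair genes, atl-1 (V, 9634849 to 9645595), the ATR kinase gene, was at 152 and 309 in the triple mutant and 34.7 and 35.7 in the point mutant (log2 fold change 2.59, SE 0.35, limma adjusted p = 0.00168; log2 fold change 1.91 with the length trend removed). rad-50, of the MRN complex, was at 321 and 540.4 in the triple mutant and 58.8 and 74.4 in the point mutant (log2 fold change 2.64, SE 0.45, limma adjusted p = 0.00564; 0.0652 without point mutant replicate 1). In both, the strains did not overlap.

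Of 28 oocyte and eggshell genes, 0 were higher and 5 lower (17.9% against 4.79% of all members, median -0.58). The count was 12 lower both without triple mutant replicate 2 and with the length trend removed. mex-5 (WBGene00003230, IV, 13353723 to 13356104), a zinc-finger protein gene that sets embryonic polarity, was at 344 and 463 in the triple mutant and 885 and 908 in the point mutant (log2 fold change -1.17, SE 0.21, limma adjusted p = 0.00748; 0.0701 and 0.0712 without point mutant replicate 1 or 2). mex-1 (II, 11968637 to 11972330) was at 169 and 185 in the triple mutant and 423 and 450.4 in the point mutant (log2 fold change -1.30, SE 0.23, limma adjusted p = 0.00656; 0.0599 and 0.0689, as before). cey-3, of the Y-box RNA-binding proteins, was at 335 and 445 in the triple mutant and 808 and 811 in the point mutant (log2 fold change -1.07, SE 0.22, limma adjusted p = 0.0115; 0.0922 and 0.0922). The point mutant was the high strain in each: N2 was at 322 and 431 for mex-5, 143 and 213 for mex-1 and 212 and 299.8 for cey-3. daz-1, an RNA-binding protein gene needed for oogenesis, was at 37.4 and 101 in the triple mutant and 200.4 and 201 in the point mutant (log2 fold change -1.68, SE 0.38, limma adjusted p = 0.0201; 0.124 and 0.12). With genotype weights 0 of the 28 were called, and all 5 calls were lost without either point mutant library. Summed over all 30 listed genes, the level was 11999 and 13929 in the triple mutant, 17477 and 17358 in the point mutant, and 10064 and 11296 in N2, with at most 1 gene at 0 in any of the first 4. In bulk samples, a different share of embryos or cells carrying these transcripts and a different amount per cell cannot be told apart.

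Of 24 P granule and germline genes, 3 (12.5%) were higher and 0 lower (median -0.08), against 7.79% and 4.79% of all members. The direction of the calls turned with the setting: the list counted 1 higher and 7 lower with the length trend removed (median -0.42), and 2 higher and 9 lower without triple mutant replicate 2. glh-1 and glh-2 encode Vasa-type RNA helicases of the germ granules. glh-1 was at 229 and 279 in the triple mutant and 105 and 116 in the point mutant (log2 fold change 1.19, SE 0.21, limma adjusted p = 0.00696; 0.0799 and 0.0504 without point mutant replicate 1 or 2). glh-2 was at 175 and 209 in the triple mutant and 91.5 and 106 in the point mutant (log2 fold change 0.95, SE 0.26, limma adjusted p = 0.0414; 0.24 and 0.143, and 0.0924 with the length trend removed). Early embryo genes counted 0 higher and 1 lower of 13, and 0 and 2 with the length trend removed.

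Histone genes were lower in 13 of 52 cases (25.0%) and higher in 0, with a median of -0.57. Over all members 4.79% were called lower, and in the shortest group of coding genes 6.73%. Linker histone genes counted 3 lower of 7 and ribosomal protein genes 24 lower of 80 (30%), again with 0 higher. Median exon lengths were 384 bases for histones, 521.5 for ribosomal protein genes and 861 for linker histones, against 1505.5 for all coding members. With the length trend removed the histones counted 1 higher and 2 lower, with a median of 0.005. The ribosomal protein genes then counted 1 higher and 16 lower (median -0.25) and the linker histones 0 higher and 4 lower (median -0.61). Leaving out triple mutant replicate 2 as well gave medians of -0.58, -0.41 and -0.42 in that order. With genotype weights 0 histone, 3 ribosomal protein and 0 linker histone genes were lower. his-71 (WBGene00001945, X, 7981382 to 7982070), an H3.3-type gene, was at 94.2 and 89.7 in the triple mutant and 261 and 270.0 in the point mutant (log2 fold change -1.52, SE 0.22, limma adjusted p = 0.00215), and this call also passed with the length trend removed (0.00403). his-59 (IV, 7488249 to 7488659), an H3 gene with many near-identical copies among which reads may have been split, was at 6934 and 7278 in the triple mutant and 13225 and 12884 in the point mutant (log2 fold change -0.88, SE 0.16, limma adjusted p = 0.00806; 0.0866 and 0.0749 without point mutant replicate 1 or 2, and 0.401 with the length trend removed). rps-26 (I, 14759930 to 14760626), of the small ribosomal subunit, was at 970.0 and 862 in the triple mutant and 1828 and 1950.2 in the point mutant (log2 fold change -1.05, SE 0.16, limma adjusted p = 0.0033; 0.0924 with the length trend removed). N2 lay between the strains for rps-26, at 1413 and 1523, and nearer the triple mutant for his-71, at 114 and 139. Histone messages made for DNA replication mostly lack the poly(A) tail used for selection.

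Of 34 cilia genes, 11 were higher and 0 lower (32.4%, against 7.79% higher over all members; median log2 fold change 0.93), with 10 and 0 both without triple mutant replicate 2 and with the length trend removed, and 3 and 0 with genotype weights. C. elegans builds cilia on the dendrites of sensory neurons through intraflagellar transport. che-10 (WBGene00018051, II, 4627811 to 4638341), which encodes a rootletin of the ciliary base, was at 302 and 321 in the triple mutant and 21.2 and 18.3 in the point mutant (log2 fold change 3.92, SE 0.22, limma adjusted p = 3.03e-05; log2 fold change 3.30 with the length trend removed). che-3 (WBGene00000485, I, 8062007 to 8081671), the heavy chain of the dynein that carries cargo back from the ciliary tip, was at 74.8 and 149 in the triple mutant and 3.85 and 6.11 in the point mutant (log2 fold change 4.18, SE 0.53, limma adjusted p = 0.00127; log2 fold change 3.29 with the length trend removed). klp-11 (IV, 8756735 to 8762066), a kinesin-II motor subunit gene, was at 125 and 205 in the triple mutant and 20.2 and 15.3 in the point mutant (log2 fold change 3.11, SE 0.35, limma adjusted p = 0.000761), but 97.1% of its exons are shared with another gene on its strand. dyf-11 (X, 763752 to 766739), of the forward transport complex, was at 56.8 and 41.2 in the triple mutant and 9.63 and 9.17 in the point mutant (log2 fold change 2.25, SE 0.38, limma adjusted p = 0.00544). All 4 calls passed with each of the 4 libraries left out. The point mutant was low in each against N2, which stood at 153 and 173 for che-10 and 48.3 and 18.3 for che-3, while the triple mutant was above N2. Listed genes that did not pass included osm-6 (log2 fold change -0.59), osm-3 (-0.33) and bbs-8 (-0.34). The summed level of the 39 listed genes was 1894 and 2175 in the triple mutant, 956 and 1016 in the point mutant, and 1486 and 1657 in N2.

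Of 23 neuronal genes, 7 (30.4%) were higher and 1 lower (median 0.58), with 8 and 2 without triple mutant replicate 2, 6 and 2 with the length trend removed and 4 and 0 with genotype weights. The shares over all members were 7.79% higher and 4.79% lower. unc-13 (WBGene00006752, I, 7422785 to 7454116), which primes synaptic vesicles, was at 101 and 171 in the triple mutant and 15.4 and 21.4 in the point mutant (log2 fold change 2.79, SE 0.37, limma adjusted p = 0.00147, and log2 fold change 2.16 with the length trend removed). ric-4 (V, 10261131 to 10270314), the SNAP-25 homolog, was at 37.4 and 55.6 in the triple mutant and 4.82 and 10.2 in the point mutant (log2 fold change 2.53, SE 0.40, limma adjusted p = 0.00345). unc-104 (II, 6994987 to 7010625), the kinesin that carries synaptic vesicle precursors, was at 105 and 211 in the triple mutant and 27 and 32.6 in the point mutant (log2 fold change 2.29, SE 0.33, limma adjusted p = 0.00222). The N2 mean lay between the strains in each, with libraries at 57.6 and 106, 24.9 and 29.2 and 77.9 and 86.5 in that order. ric-3, a chaperone gene of acetylcholine receptors, was at 104 and 139 in the triple mutant and 26 and 19.4 in the point mutant (log2 fold change 2.37, SE 0.35, limma adjusted p = 0.00251). The gene called lower was snb-1, the synaptobrevin gene, at 111 and 153 in the triple mutant and 239 and 255 in the point mutant (log2 fold change -0.92, SE 0.24, limma adjusted p = 0.0354; 0.162 and 0.194 without point mutant replicate 1 or 2). The summed level of 33 listed genes was 1843 and 2710 in the triple mutant, 1490 and 1504 in the point mutant and 1788 and 2275 in N2.

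Of 25 body wall muscle genes 5 (20%) were higher and 0 lower, against 7.79% and 4.79% of all members. The list's median log2 fold change was -0.02. With the length trend removed the list counted 3 higher and 8 lower (median -0.29), and without triple mutant replicate 2 it counted 5 and 4. ttn-1 (WBGene00006436, V, 6120909 to 6202632), the titin homolog and a very long gene, was at 1314 and 2416 in the triple mutant and 387 and 415 in the point mutant (log2 fold change 2.15, SE 0.25, limma adjusted p = 0.000765; log2 fold change 0.51, limma adjusted p = 0.0205, with the length trend removed). Pharynx genes counted 3 higher of 14 (3 higher and 1 lower with the length trend removed), led by myo-5 (V, 8108970 to 8118131), a myosin heavy chain gene at 263 and 366 in the triple mutant and 60.7 and 37.7 in the point mutant (log2 fold change 2.67, SE 0.38, limma adjusted p = 0.00215; log2 fold change 2.08 with the length trend removed). Both genes had triple mutant values above those of all 4 point mutant and N2 libraries. Cuticle and precuticle genes counted 1 higher and 0 lower of 21, and 1 and 5 with the length trend removed. Collagens counted 0 higher and 2 lower of 67, with 0 and 21 without triple mutant replicate 1 and 8 and 4 without replicate 2. Intestine genes counted 0 of 13 in either direction; no gene of that list passed with genotype weights or with the length trend removed either.

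**Figure D3:**
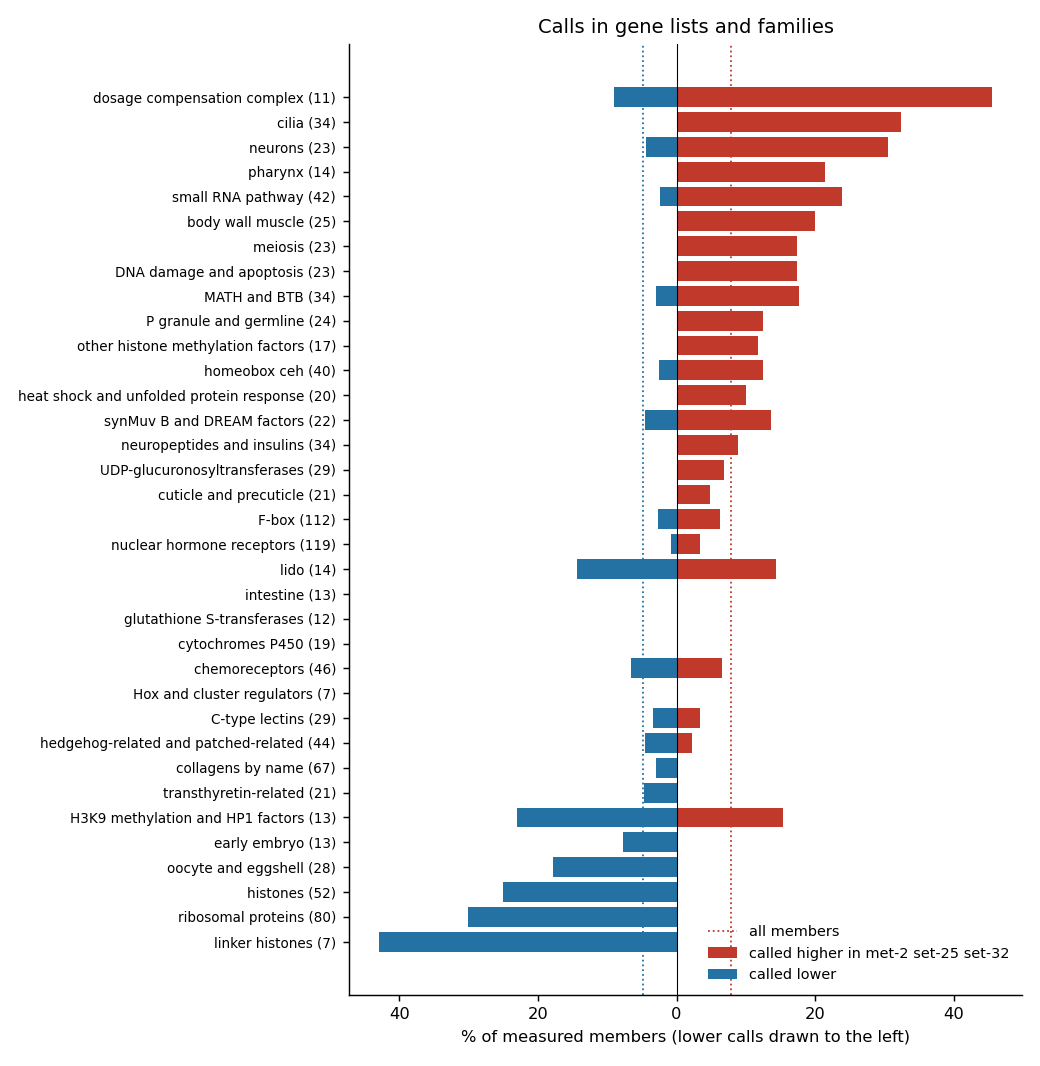
Bars give, for each gene list or name family (number of measured members in brackets), the percentage called higher (red, to the right) and lower (blue, to the left) in the triple mutant; dotted lines mark the shares over all members, 7.79% and 4.79%. Cilia and dosage compensation genes stand to the right, and ribosomal protein, histone and linker histone genes to the left.

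Outside the lists, the named genes with the widest gaps were few-read in 1 of the strains. rol-1 (WBGene00004394, II, 12172573 to 12176069) had no read in the point mutant and was at 84.5 and 14.5 in the triple mutant, at least 33.3-fold higher against a floor of 3 reads over the point mutant libraries (limma adjusted p = 0.00169). In N2 it was at 4.67 and 8.53. lido-18 (WBGene00015988, III, 7662278 to 7667642) was at 118 and 94.1 in the triple mutant and 7.71 and 11.2 in the point mutant (log2 fold change 3.37, SE 0.41, limma adjusted p = 0.00107). Its N2 values, 3.12 and 7.31, were below those of the point mutant, so here the triple mutant was the high strain. fbxb-38 (II, 2167691 to 2168763), an F-box gene, was at 170.4 and 52.3 in the triple mutant and 7.71 and 8.15 in the point mutant (log2 fold change 3.42, SE 0.49, limma adjusted p = 0.00215). The chemoreceptor-type genes srg-8 and srg-2, neighbours on chromosome III, differed more between replicates. srg-8 was at 92.8 and 18 in the triple mutant and 1.93 and 5.09 in the point mutant (log2 fold change 3.32, SE 0.77, limma adjusted p = 0.0211; 0.164 and 0.0671 without point mutant replicate 1 or 2). srg-2 was at 77.6 and 12.5 in the triple mutant and 0.963 and 2.04 in the point mutant (log2 fold change 3.74, SE 0.91, limma adjusted p = 0.026; 0.164 and 0.105).

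Among the abundant genes, sma-1 (WBGene00004855, V, 11899449 to 11916623), a beta-heavy spectrin gene that shapes the elongating embryo, was at 3826 and 6502 in the triple mutant and 1927 and 1944 in the point mutant (log2 fold change 1.37, SE 0.23, limma adjusted p = 0.00475; 0.0541 without point mutant replicate 1, and a log2 fold change of 0.45 with the length trend removed). epi-1, a laminin alpha chain gene, was at 2291 and 4182 in the triple mutant and 1529.7 and 1549 in the point mutant (log2 fold change 1.01, SE 0.24, limma adjusted p = 0.0255; 0.149 and 0.138 without point mutant replicate 1 or 2, and 0.484 with the length trend removed). On the lower side, chdp-1 was at 3038 and 2722 in the triple mutant and 4626 and 4653 in the point mutant (log2 fold change -0.69, SE 0.15, limma adjusted p = 0.0154; 0.121 and 0.12). In all 3 the N2 libraries lay nearer the triple mutant than the point mutant, at 4604 and 4735 for sma-1 and 3352 and 3469 for chdp-1.

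Of the 8 genes named for the largest falls among coding genes with a symbol, a mean of at least 20 and groups that did not overlap, chkr-1 had no read in the triple mutant and is described below. The others were far lower in triple mutant replicate 2 than in replicate 1. gur-3 (X, 10402522 to 10406303), a gustatory-receptor homolog with 12.1% opposite overlap, was at 79 and 12.9 in the triple mutant and 201 and 224 in the point mutant (log2 fold change -2.68, SE 0.60, limma adjusted p = 0.0182; 0.105 and 0.118 without point mutant replicate 1 or 2). glt-6, a glutamate transporter gene, was at 69.3 and 17.1 in the triple mutant and 193 and 201 in the point mutant (log2 fold change -2.47, SE 0.48, limma adjusted p = 0.0102; 0.0783 and 0.08). rap-3, a Rap-type GTPase gene with 20.6% opposite overlap, was at 108 and 16.5 in the triple mutant and 239 and 285 in the point mutant (log2 fold change -2.59, SE 0.63, limma adjusted p = 0.0258; 0.123 and 0.149). Replicate 1 alone was still below both point mutant libraries in all 3. cox-17, ceh-87, nhr-217 and srt-47 had the same order of replicates and likewise lost the call without either point mutant library (limma adjusted p from 0.0855 for srt-47 to 0.189 for ceh-87). Outside these 8, calls that passed with each of the 4 libraries left out included ttr-6 (X, 6596425 to 6597121), a transthyretin-related gene at 0 and 0.667 in the triple mutant and 19.3 and 27.5 in the point mutant (log2 fold change -4.22, SE 0.48, limma adjusted p = 0.000776), and grl-10 (V, 7774545 to 7775759), of the hedgehog-related genes, at 103 and 69.6 in the triple mutant and 249 and 266 in the point mutant (log2 fold change -1.59, SE 0.24, limma adjusted p = 0.00263).

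**Figure D4:**
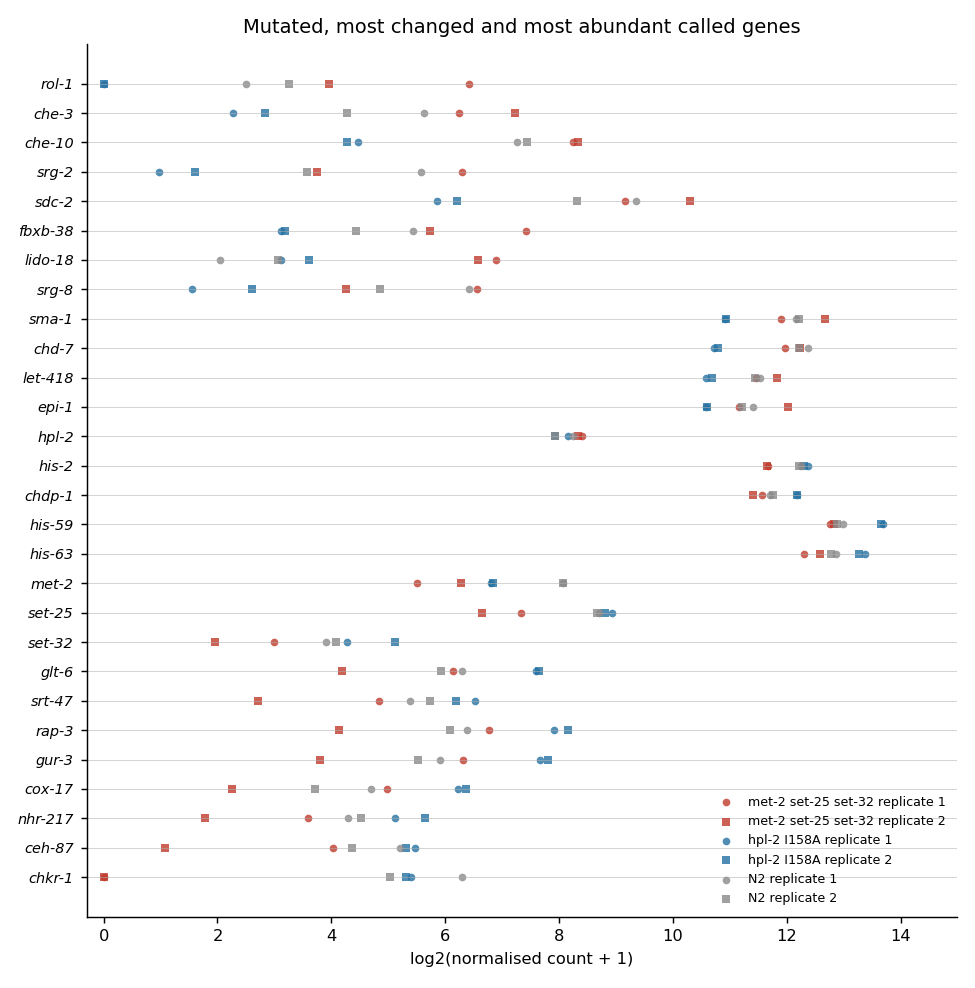
Levels of the 4 mutated genes, the 8 protein-coding genes with the largest called difference in each direction (symbol, mean of at least 20, groups that do not overlap) and the 4 most abundant called genes in each direction (y axis), on a log2(normalised count + 1) axis, with 1 point per library of the triple mutant (red), the point mutant (blue) and N2 (grey). che-10 has both red points close together at the right, while gur-3 and glt-6 have them far apart at the left.

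At the left end of chromosome X, the triple mutant had almost no reads. Of the 15 members that start between positions 261 and 199262, 14 were called lower and 8 had no read in either triple mutant library. Together they held 22 and 78 reads in the triple mutant libraries, the second of which was the deepest of the study, and 824 and 746 in the point mutant. chkr-1 (WBGene00011612, X, 182691 to 191193) had no read in the triple mutant and was at 41.4 and 38.7 in the point mutant, at least 69.7-fold lower against a floor of 3 reads over the triple mutant libraries (limma adjusted p = 0.000196). T08D2.8 (X, 192834 to 197901) had no read there either, against 17.3 and 16.3, at least 29.2-fold lower (limma adjusted p = 0.000497). Y73B3A.1 (X, 42632 to 46933), a protein-coding gene, was at 13.9 and 0.667 against 341 and 297. The pseudogene WBGene00022211 (X, 150363 to 157246) was at 1.39 and 0.222 in the triple mutant and 92.5 and 85.6 in the point mutant (log2 fold change -5.72, SE 0.50, limma adjusted p = 0.000339). All 10 libraries of the other strains had reads in chkr-1, T08D2.8, Y73B3A.1 and WBGene00022211, the lowest being 31.7, 16.3, 169 and 41.4. This stretch was looked for with its low reads already known from earlier work on these data.

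Stretches of neighbouring members with no read in both libraries of a strain were found in the triple mutant and not in the point mutant, at X 84041 to 94978 (4 genes) and X 164036 to 197901 (3 genes). The first holds Y73B3A.24 (X, 90282 to 90420), a non-coding gene with 44.6% opposite overlap that was at 38.5 and 46.9 in the point mutant, at least 74.3-fold higher than the triple mutant (limma adjusted p = 7.69e-05). It also holds the pseudogene WBGene00023391 (X, 86887 to 86958), at 44.3 and 39.7 in the point mutant (limma adjusted p = 0.000194). That gene had no read in N2 either and lies wholly opposite another gene. The 15 members that follow, from 297234 to 497510, were called lower in 0 cases and higher in 3. One of them was the homeobox gene ceh-93 (X, 384385 to 388797), at 65.1 and 120.1 in the triple mutant and 12.5 and 18.3 in the point mutant (log2 fold change 2.47, SE 0.36, limma adjusted p = 0.00251). Of all members, 11 had no read in both triple mutant libraries, 8 of them on X, and 4 had none in both point mutant libraries, 0 of them on X. Whether the DNA of this end is present in the triple mutant strain was not tested.

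**Figure D5:**
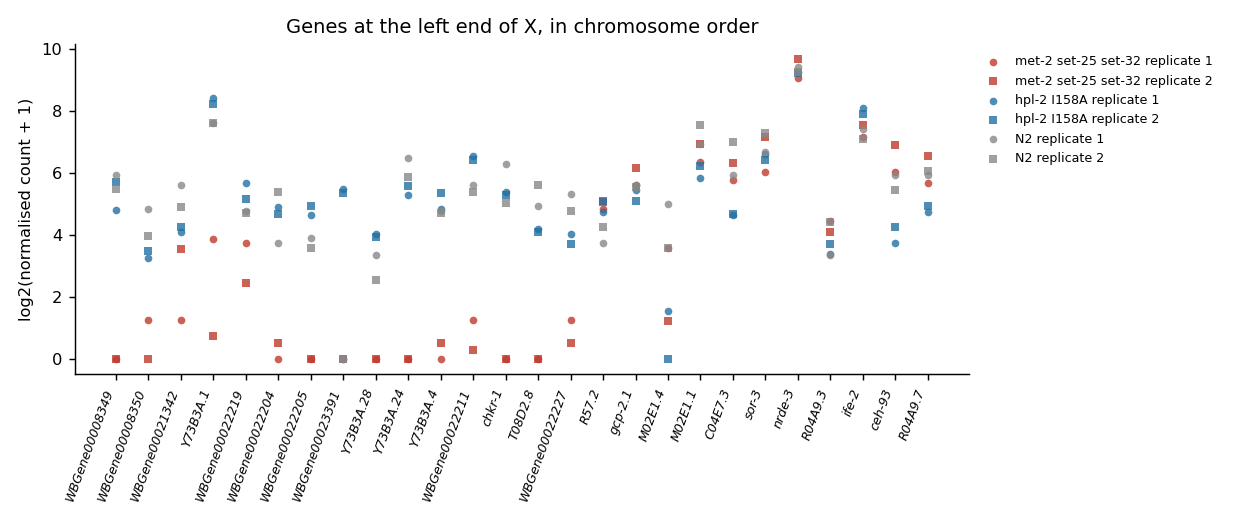
Levels (y axis, log2(normalised count + 1)) of annotated genes at the left end of X in chromosome order (x axis), with 1 point per library of the triple mutant (red), point mutant (blue) and N2 (grey). Red points lie at or near 0 for most genes up to WBGene00022227 and among the other points from R57.2 on.

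Non-coding genes were where the triple mutant replicates differed most. Of 1334 members of ncRNA type, 4 (0.30%) were higher and 187 (14.0%) lower, against 7.79% and 4.79% of all members. Their median log2 fold change was -1.29. The median difference from the point mutant was -0.09 in replicate 1 and -2.41 in replicate 2, and without replicate 2 the count was 139 higher and 152 lower. Small nucleolar RNA genes counted 2 lower of 30, long intergenic RNA genes 2 lower of 44, and piRNA genes 6 higher and 11 lower of 243. The piRNA count was 6 and 176 without triple mutant replicate 1 and 75 and 13 without replicate 2. Pseudogenes counted 19 higher and 20 lower of 257, with 26 and 92 without replicate 1 and 56 and 22 without replicate 2. Small nucleolar RNA genes counted 20 lower and long intergenic RNA genes 30 lower without replicate 1. T04C12.25 (V, 11080384 to 11080603), a non-coding gene, was at 1225 and 169.7 in the triple mutant and 7.71 and 4.08 in the point mutant (log2 fold change 6.10, SE 0.85, limma adjusted p = 0.00195; log2 fold change 6.91 with the length trend removed), and N2 stood at 1.56 and 0. It passed with each of the 4 libraries left out, but 90.5% of it lies opposite another gene. The pseudogene WBGene00005991 (II, 3691784 to 3693231) was at 80.4 and 12.5 in the triple mutant and had no read in the point mutant or N2 libraries (at least 31.2-fold higher; limma adjusted p = 0.0108, 0.0802 and 0.0767 without point mutant replicate 1 or 2 and 0.0584 without triple mutant replicate 1).

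The kit marks strand, while how the counting treated strand is not given in the sources used here. For 136 non-coding members that lie at least 90% opposite the exons of 1 coding member, the median log2 ratio of reads per base, non-coding over coding, was 3.35 in triple mutant replicate 1, 0.65 in replicate 2, and 2.96 and 3.13 in the point mutant. Reads of a gene and of the gene opposite it can therefore not be told apart with certainty. Of the 1290 called coding members, 31 (2.40%) had more than 10% of their exons opposite another gene, against 4.75% of all coding members.

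By position, with each chromosome cut into 3 equal parts, coding genes in the middle part of the autosomes were called higher in 493 of 3736 cases (13.2%) and lower in 98 (2.62%), with a median of 0.15. In the outer parts, where most H3K9 methylation lies in C. elegans, 340 of 5117 (6.64%) were higher and 221 (4.32%) lower, with a median of -0.08. Both triple mutant replicates had the higher median in the middle, at 0.07 against -0.10 in replicate 1 and 0.37 against 0.06 in replicate 2. N2 had the same order over the point mutant, at -0.02 against -0.11 in replicate 1 and -0.03 against -0.11 in replicate 2. Median exon lengths were 1519 bases in the middle and 1437 in the outer parts, and with the length trend removed the medians were 0.05 and -0.19. No test of this difference was made.

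The authors' deposited table called 2286 of 12266 members (18.6%) at an adjusted p under 0.05, 1330 higher (10.8%) and 956 lower (7.79%) in the triple mutant. Of the 956 genes called higher here, 944 were among the higher calls of the authors' deposited table, which is 98.7% of the former and 71.0% of the latter. Of the 588 called lower, 586 were among its lower calls, or 99.7% and 61.3%. The authors' deposited table gave che-10 a log2 fold change of 3.98 (adjusted p = 3.67e-27), sdc-2 one of 3.81 (3.85e-16) and set-25 one of -1.90 (1.22e-11).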

How the data were processed

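Poly(A)-selected RNA was sequenced from 12 libraries of 6 genotypes. Per the submitters' processing notes, the tools were STAR, featureCounts and DESeq2 and the builds WBcel235 and ce11; the sources used here give no versions, annotation or options. The authors deposited a signal per gene and library, a normalised count: with a tolerance of 1e-06, 100% of values were whole reads divided by 1 size factor per library, and depth came from these reads. A second deposited table holds the authors' p-value, adjusted p-value and log2 fold change per pair of genotypes; its sign was turned to triple mutant minus point mutant. Symbols and positions came from Ensembl 115 (46817 identifiers matched, 87 did not).

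Since the deposited values are not counts, limma-trend (limma 3.58.1, R 4.3.3) was run on log2(value + 1) with all 12 libraries and no term but genotype, on the 14640 genes that reached 10 in 2 or more libraries. Calls were taken at a Benjamini-Hochberg adjusted p under 0.05 over all genes fitted; fold changes on this scale understate the change of low genes. Residual degrees of freedom were 6 and prior degrees of freedom 4.73. edgeR 4.0.16 and DESeq2 1.42.0 on the recovered reads were alternatives. The fit was tested on simulated data drawn with the same dispersion for all libraries. The wider spread of the triple mutant replicates was thus not part of that test. A floor of 3 reads over a group covers counting error only.

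Members, 21 gene lists and 19 name families were chosen with earlier results of these data known. Genes were named by rule: the mutated genes; called coding genes with a symbol, a mean of at least 20 and groups that do not overlap (8 largest changes and 4 most abundant in each direction); up to 4 called genes with the smallest p in each list or family; 3 called genes of other types in each direction; 4 in each direction whose triple mutant libraries lie on opposite sides of the point mutant; and stretches of at least 3 neighbours with no read in a strain. Further list members (hpl-1, cec-4, alg-2, snb-1, osm-6, osm-3, bbs-8) and Y73B3A.1 were named after their values were seen.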

Additional observations from a re-analysis of the deposited data

How the results depend on the processing

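Against 1544 calls (956 higher, 588 lower), leaving out 1 of the 4 libraries gave 350 to 5463 calls, 296 to 2256 of them higher and 54 to 3207 lower; the lone library left in a strain is then assumed to vary like the others. Genotype weights gave 329 (247 higher, 82 lower), and the 4 libraries alone gave 0 (0 higher, 0 lower). Without a filter on low values limma called 942 members, 292 of them lower. There were 3 settings chosen after the data were seen: removing the length trend gave 2390 calls with 1331 lower; doing so without triple mutant replicate 2 gave 3280 (1441 higher, 1839 lower); and with genotype weights it left 492 higher. That last setting gave 1047 calls, 555 of them lower. A filter of 50, pseudocounts of 0.5 and 5, TMM scaling, scaling to the coding total, member genes alone, edgeR (1617 calls) and DESeq2 (1981) stayed within 1.5 times of the count of calls. With the replicate number as a block there were 1447 calls (887 higher, 560 lower). The labels do not say whether equal replicate numbers share a culture or day. Replicate differences of the strains correlated at -0.10 across members, which cannot show whether they do.

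Of 122 named calls, 44 passed with each library left out, 48 with genotype weights and 109 with the length trend removed; 74 and 71 were lost without point mutant replicate 1 and 2. No named call changed direction. The uncalled genes whose triple mutant replicates disagree did. With 1 library left out, their log2 fold changes ranged from -2.27 to 0.34 for mob-3, from -1.63 to 0.80 for slc-25A26, from -1.73 to 0.84 for aat-1, from -0.94 to 2.41 for ttr-39, from -1.09 to 2.27 for trx-1, from -2.60 to 0.92 for col-119, from -0.94 to 1.58 for fbxc-39 and from -2.17 to 1.57 for srab-14. Each range runs between the values without triple mutant replicate 1 and without replicate 2. Without replicate 2 and with the length trend removed, col-119, fbxc-39 and srab-14 were at 0.91, -0.97 and 1.53, and fbxc-39 was at -0.10 without point mutant replicate 2. With edgeR and DESeq2, slc-25A26 was at 0.20 and 0.12, aat-1 at 0.18 and 0.10, and srab-14 at 0.53 and 0.63. Leaving out a triple mutant library rests each value on the other one by construction; for edgeR and DESeq2 the cause was not tested. Depth limits the low genes: 1 read was worth 1.39 normalised counts in triple mutant replicate 1 and 0.222 in replicate 2.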

Other observations

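Large families of the worm genome held scattered calls. Of 112 F-box members, 7 were higher and 3 lower (6.25% and 2.68%). Of 34 MATH and BTB members 6 were higher and 1 lower (17.6% and 2.94%, against 7.79% and 4.79% over all members). With genotype weights F-box members counted 1 higher and 0 lower, and MATH and BTB members 0 and 0. bath-19 (II, 2035695 to 2039388) was at 22.2 and 21.4 in the triple mutant and 0.963 and 1.02 in the point mutant (log2 fold change 3.52, SE 0.60, limma adjusted p = 0.00537), and its neighbour bath-3 (II, 2029236 to 2030467) was at 11.1 and 14.2 with no read in the point mutant (at least 8.52-fold higher; limma adjusted p = 0.00944, 0.0713 and 0.066 without point mutant replicate 1 or 2). N2 was as low as the point mutant in both, at 1.56 and 1.22 and 0 and 1.22. Homeobox ceh genes counted 5 higher and 1 lower of 40 (12.5% and 2.5%). With genotype weights they counted 1 and 0, a setting that called 2.01% of all members higher and 0.668% lower. ceh-86 (II, 2426366 to 2432072) was at 204 and 279 in the triple mutant and 32.8 and 72.3 in the point mutant (log2 fold change 2.27, SE 0.34, limma adjusted p = 0.00273). With genotype weights its limma adjusted p was 0.0668. Of 119 nuclear hormone receptor genes 4 were higher and 1 lower (5 and 8 with the length trend removed), and of 19 cytochrome P450 and 12 glutathione S-transferase genes none passed.

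Neuropeptide and insulin genes counted 3 higher (8.82%) and 0 lower of 34, against 7.79% and 4.79% of all members. With the length trend removed they counted 9 and 0, where 8.64% of all members were higher and 10.9% lower. Their median log2 fold change was 0.67 without triple mutant replicate 2 and -0.38 without replicate 1. nlp-22 (X, 2341359 to 2342089), a neuropeptide gene, was at 109 and 18 in the triple mutant and 5.78 and 5.09 in the point mutant, with N2 at 96.6 and 90.2 (log2 fold change 2.83, SE 0.66, limma adjusted p = 0.0211; 0.113 and 0.125 without point mutant replicate 1 or 2, and a log2 fold change of 3.49 with the length trend removed). flp-3, of the FMRFamide-like peptides, was at 151 and 26.5 in the triple mutant and 11.6 and 15.3 in the point mutant (log2 fold change 2.18, SE 0.59, limma adjusted p = 0.0405; 0.217 and 0.141). Replicate 1 was near or above N2 in both and replicate 2 well below it. Chemoreceptor genes counted 3 higher and 3 lower of 46 (6.52% each), with medians of -0.08 in triple mutant replicate 1 and -2.16 in replicate 2. Among C-type lectins, clec-180 (IV, 7568893 to 7573766) was at 133 and 206 in the triple mutant and 18.3 and 33.6 in the point mutant (log2 fold change 2.69, SE 0.35, limma adjusted p = 0.00147), 1 of 2 calls in 29 genes. The unfolded protein response kinase gene ire-1 was at 126 and 277 in the triple mutant and 51.1 and 72.3 in the point mutant (log2 fold change 1.60, SE 0.39, limma adjusted p = 0.0252; 0.188 and 0.0823).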
